A study of Rattus norvegicus with 10 samples.

Results

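The genes described here are 10 members of the Nrf2 antioxidant response, chosen by name: Nfe2l2, Keap1, Slc7a11, Gclc, Gclm, Txnrd1, Srxn1, Hmox1, Nqo1 and Osgin1. They are 10 of the 32545 genes in the count table, and each name matched 1 gene. The rule is a list of names and uses no measured value, but the list was drawn up with earlier results of these data known. RNA-seq was performed on the CA1 region microdissected from rat hippocampal slices, in 5 groups of 2 libraries. Slices were treated with SKF, an agonist of the dopamine D1/D5 receptors that stimulates synapses globally, in 4 of the 5 groups. Of these, 1 group had SKF only, in another oligomers of the amyloid-beta peptide were added (SKF+Aβ), and the remaining 2 received in addition either an empty glucose-derived carbon nanosphere (SKF+Aβ+CSP) or the nanosphere conjugated to TTK21 (SKF+Aβ+CSP-TTK21). TTK21 activates the histone acetyltransferases CBP and p300. The fifth group received the conjugate alone (CSP-TTK21 alone), with neither SKF nor Aβ. The methods of the study name adult male Wistar rats of 5 to 7 weeks for the recorded slices and 2 slices from 2 biological samples for each repeat, so that a library may pool animals. Per the text of the study, basal stimulation for 30 min preceded the treatment, and slices were taken 1 h after it. The members were compared over the 5 groups, and in particular between the 3 groups that received a nanosphere and the 2 that did not.

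Nrf2, the transcription factor encoded by Nfe2l2, is held in the cytoplasm by Keap1, which presents it to a ubiquitin ligase built on Cul3 for degradation. Oxidants and electrophiles modify Keap1, Nrf2 accumulates, enters the nucleus, pairs with small Maf proteins and binds antioxidant response elements in the promoters and enhancers of its target genes. In the brain the programme is most active in glia, and foreign particles are among the stimuli that can engage it. Of the targets examined, Slc7a11 imports cystine, Gclc and Gclm form the enzyme that starts glutathione synthesis, Txnrd1 and Srxn1 keep thioredoxin and peroxiredoxins reduced, Hmox1 degrades heme, Nqo1 reduces quinones, and Osgin1 is an inhibitor of cell growth induced by oxidative stress. In the table these are the rat Ensembl genes ENSRNOG00000001548 (Nfe2l2), ENSRNOG00000020878 (Keap1), ENSRNOG00000010210 (Slc7a11), ENSRNOG00000006302 (Gclc), ENSRNOG00000013409 (Gclm), ENSRNOG00000009088 (Txnrd1), ENSRNOG00000031167 (Srxn1), ENSRNOG00000014117 (Hmox1), ENSRNOG00000012772 (Nqo1) and ENSRNOG00000014948 (Osgin1).

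The element that binds Nrf2 was searched for in RefSeq promoters of the rat assembly GRCr8, from 250 bases before to 50 bases after each annotated start, because it is what the targets are known to share. The letters searched were TGACNNNGC and its variant TGAGNNNGC, on both strands. A promoter was found for 9 of the 10 members, the exception being Hmox1, and Txnrd1 had 2 starts. Matches were found in the windows of 4 members, which are shown 5′ to 3′ on the strand of the gene with up to 10 bases on either side, the match in capitals:
Nfe2l2, chr3:81028950-81028971, minus strand: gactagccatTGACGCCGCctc
Gclm, chr2:213031953-213031981, plus strand: tgcggtttctGCTTAGTCAttgtcttcca
Srxn1, chr3:161064684-161064712, plus strand: cccactgagaGCCGACTCAtcctcgctgg
Srxn1, chr3:161064785-161064813, plus strand: tccgcgacctGCAAACTCAccctgagtca
Srxn1, chr3:161064797-161064825, plus strand: aaactcacccTGAGTCAGCgacccgacgc
Txnrd1, chr7:22755964-22755992, minus strand: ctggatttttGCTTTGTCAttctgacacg
The Gclm match began 172 bases before the start and that of Txnrd1 78 bases before it. The 3 Srxn1 matches, all of the variant, began 118, 17 and 5 bases before the start, and the last of these ran over it. In Nfe2l2 the match lay after the start and its last base was 47 bases after it, so that the bases shown on its right stop at the end of the window. At least 1 of these letter patterns was present in 27.1% of the 33469 promoter windows of the same length, TGACNNNGC in 12.1% and TGAGNNNGC in 17.2%. The matches are therefore descriptions of the sequence and were not tested as binding sites.

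Total counts ranged from 6753742 to 8473407 per library, and mitochondrial genes took between 3.60% and 7.74% of them. Of the 32545 genes, 15032 passed the filter on low counts, among them all 10 members. The CA1 marker Wfs1 had 734 to 2662 counts and the pyramidal neuron gene Camk2a 9213 to 16072, but Fibcd1, also a CA1 marker, was listed at 0 in every library, and the dentate gyrus marker Prox1 had 1024 to 1772. Glial markers were present as well, with summed levels of 3710 to 5646 normalized CPM (counts scaled to a common library size) for 7 astrocyte genes, 10918 to 24920 CPM for 6 oligodendrocyte genes and 74.2 to 174 CPM for 8 microglial genes. In such bulk tissue, fewer cells of a type cannot be told apart from less RNA per cell. Several genes of the pathway that cells generally use were at or near 0, as Fth1 was listed at 0 in all libraries and Gpx4 had between 0 and 6 counts, and the cause was not tested.

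The levels of the members in the 10 libraries are given in normalized CPM, which also carry a composition factor for each library, and are compared between libraries and not between genes. Among the regulators, Nfe2l2 ranged from 28.5 to 44.4 CPM and Keap1 from 29.6 to 35.8 CPM. Keap1 was the steadiest member, with a coefficient of variation of 6.58% over the 10 libraries. The glutathione genes ranged from 142 to 297 CPM for Slc7a11, 65.4 to 87.3 CPM for Gclc and 14.7 to 21.2 CPM for Gclm. Txnrd1, the thioredoxin reductase, lay between 125 and 166 CPM, and Srxn1, sulfiredoxin, between 6.73 and 12.9 CPM. Hmox1 ranged from 20.8 to 44.2 CPM, the widest span among the 9 members with counts above 0 in every library, with a highest level 2.12 times its lowest, closely followed by Slc7a11 at 2.10 times. Nqo1 lay between 8.65 and 14.0 CPM. Osgin1 was scarcely detected, with 0 to 15 counts per library, and 2 libraries, the second of SKF+Aβ with 2 counts and the second of SKF+Aβ+CSP-TTK21 with 0, were under the 3 counts that a count of 0 allows.

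**Figure D1:**
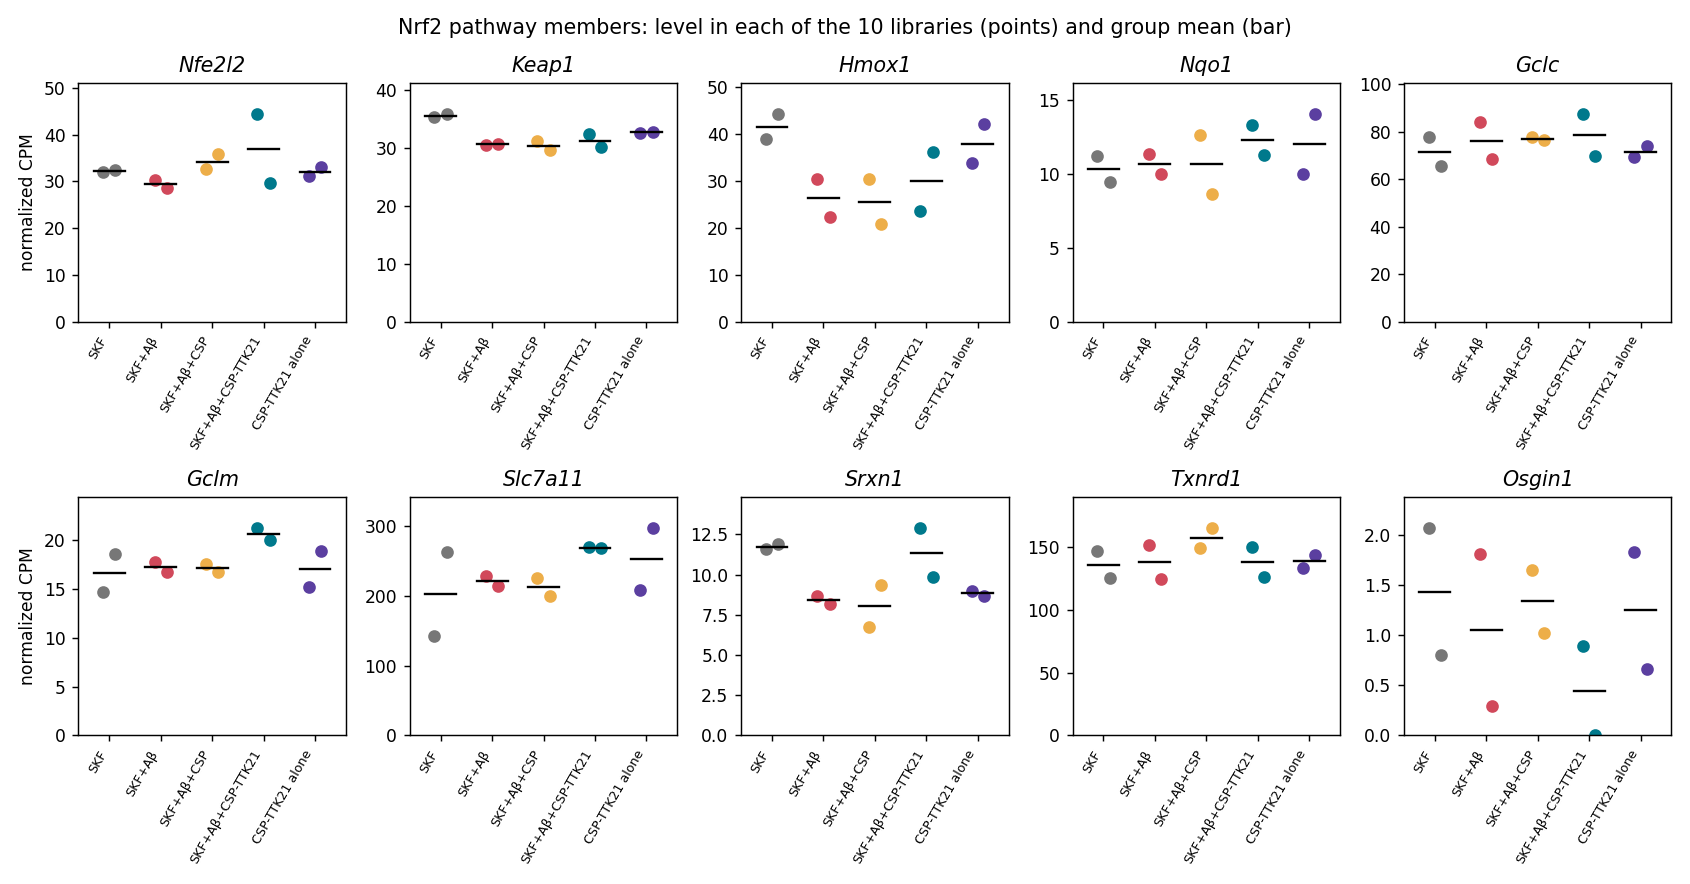
Normalized CPM (vertical axes, each starting at 0) of the 10 members by group, with a point for each library and a bar for the mean of 2. Hmox1 lies between 20.8 and 36.1 CPM in the 6 libraries with Aβ and between 33.8 and 44.2 CPM in the 4 without, and Osgin1 is near 0 in all.

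The order of the group means placed SKF+Aβ+CSP-TTK21 highest for 5 members, Nfe2l2, Nqo1, Gclc, Gclm and Slc7a11. SKF was highest for Keap1, Hmox1, Srxn1 and Osgin1, and SKF+Aβ+CSP for Txnrd1. The highest group mean exceeded the lowest by 1.10-fold in Gclc, 1.16-fold in Txnrd1, 1.17-fold in Keap1, 1.19-fold in Nqo1, 1.24-fold in Gclm, 1.26-fold in Nfe2l2, 1.33-fold in Slc7a11, 1.46-fold in Srxn1 and 1.62-fold in Hmox1. Libraries of the same group differed by up to 1.85-fold in Slc7a11 and 1.53-fold in Hmox1. Of the 4 pairs of neighbouring groups in each order, all 4 overlapped for Hmox1, Nqo1, Gclc, Slc7a11 and Osgin1, 3 for Gclm and Txnrd1, and 2 for Nfe2l2, Keap1 and Srxn1, so that 32 of the 40 pairs did not differ beyond their spread. The other 8 pairs are 20% of the members' pairs, close to the 18.1% of pairs without overlap over all genes tested, ordered in the same way. The neighbours that did not overlap were SKF+Aβ+CSP-TTK21 above SKF+Aβ for Gclm, SKF+Aβ+CSP above CSP-TTK21 alone for Txnrd1, SKF+Aβ+CSP above SKF and CSP-TTK21 alone above SKF+Aβ for Nfe2l2, SKF above CSP-TTK21 alone and the latter above SKF+Aβ+CSP-TTK21 for Keap1, and SKF+Aβ+CSP-TTK21 above CSP-TTK21 alone and the latter above SKF+Aβ for Srxn1. A test for any difference between the 5 groups called none of the 10 members, beside 0.00665% of the genes tested (1 gene). Hmox1 came closest among the members, with an unadjusted p of 0.0340 and an adjusted p of 0.318 (edgeR). It was the 1 member with an unadjusted p under 0.05, which 14.3% of all genes reached.

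The 3 nanosphere groups did not differ from SKF and SKF+Aβ in any member at an adjusted p under 0.05 (edgeR quasi-likelihood test, Benjamini-Hochberg over 15032 genes, n = 6 and 4 libraries). None of the 10 members was called, at a background of 0% of all genes, and the lowest adjusted p among them was 0.921. At an unadjusted p under 0.05 none of the members passed, against 658 genes or 4.38% of all, and DESeq2 and limma also called none of the members, with 2 and 1 genes called in all. None of the members had levels that did not overlap between the arms, against 0.353% of all genes. The arms also differ in what else the slices received, since 4 of the 6 nanosphere libraries and 2 of the 4 others had Aβ, and 2 nanosphere libraries lacked SKF, and these parts cannot be told apart in this comparison.

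The differences were small and in both directions. Slc7a11 had 200, 246 and 297 CPM as the lowest, median and highest of the 6 nanosphere libraries, and 142, 229, 213 and 262 CPM in the 4 others. The arms overlapped broadly, and the log2 fold change was 0.20 (SE 0.15, 95% interval -0.11 to 0.52). The value rested much on the SKF libraries, as it was 0.012 without the first and 0.46 without the second. Nfe2l2, the factor itself, had 29.7, 32.8 and 44.4 CPM as lowest, median and highest with a nanosphere and 31.9, 32.4, 30.3 and 28.5 CPM without. Only the first SKF+Aβ+CSP-TTK21 library stood far above the rest, and the log2 fold change was 0.16 (SE 0.12, 95% interval -0.09 to 0.41), or 0.054 without that library. Nqo1 had a log2 fold change of 0.15 (SE 0.16; 0.045 to 0.23 with a library left out), Gclm of 0.10 (SE 0.12; 0.020 to 0.20 likewise), Txnrd1 of 0.08 (SE 0.09; 0.0062 to 0.15) and Gclc of 0.03 (SE 0.10). Keap1, Srxn1 and Hmox1 were slightly lower, at -0.07 (SE 0.09), -0.10 (SE 0.15; -0.18 to -0.023 with a library left out) and -0.11 (SE 0.15). Osgin1 was at -0.41 (SE 0.59), with an interval from -1.69 to 0.86. In total 6 members were higher and 4 lower, with a median log2 fold change of 0.06, while over all genes it was 0.00 (7532 higher, 7500 lower).

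The intervals give the size of change that these data still allow. For 9 of the 10 members the 95% interval lay within 1.5-fold in either direction, and only that of Osgin1 exceeded this limit and 2-fold as well. The upper bounds of this difference, in which the particle is mixed with Aβ and SKF, were 1.17-fold for Hmox1, 1.18-fold for Srxn1, 1.42-fold for Nqo1, 1.29-fold for Gclm and 1.44-fold for Slc7a11.

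**Figure D2:**
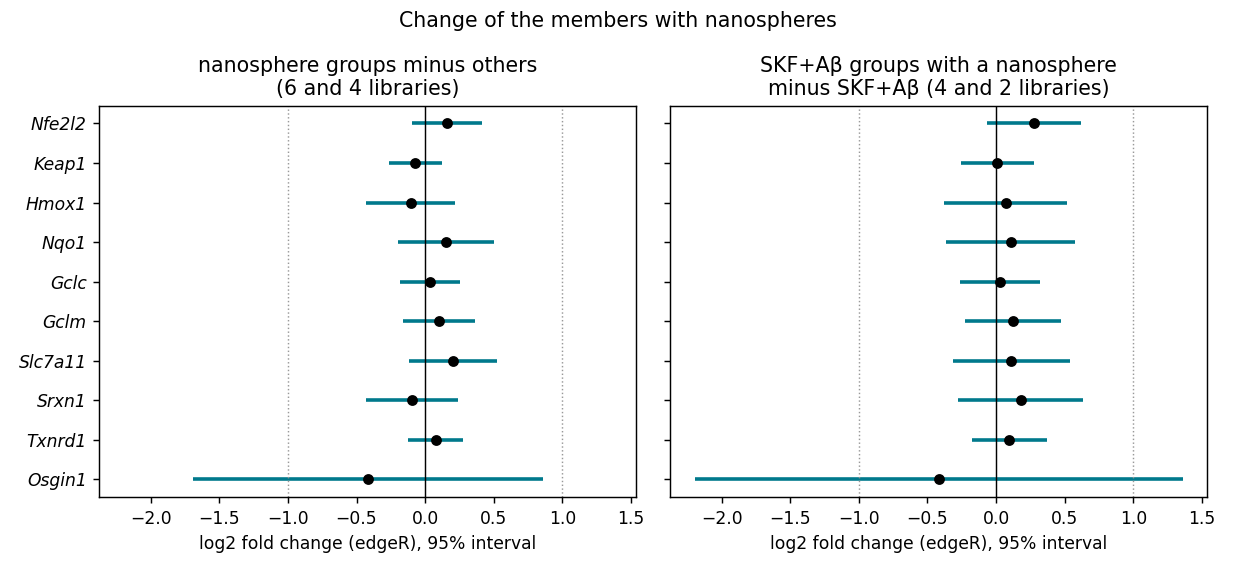
Log2 fold change of each member (points, edgeR) with a 95% interval computed from its F statistic (lines). All nanosphere groups minus the others are on the left (6 and 4 libraries), and the nanosphere groups with Aβ minus SKF+Aβ on the right (4 and 2 libraries). Dotted lines mark a 2-fold change. All intervals include 0, and only that of Osgin1 passes 2-fold.

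With SKF and Aβ present on both sides, the comparison of the 2 nanosphere groups with SKF+Aβ had the same outcome. None of the 10 members was called and none passed an unadjusted p of 0.05, at backgrounds of 0% and 2.79% (419 genes), and DESeq2 and limma called 0 genes. The adjusted p was 1 for every member. No member had libraries that did not overlap, against 8.77% of all genes. The log2 fold change was positive in 9 members, with the median at 0.10, and negative in Osgin1 alone. The members share the same SKF+Aβ libraries, and Keap1, Hmox1, Nqo1, Gclc, Txnrd1 and Osgin1 changed sign when a library was left out. Over all genes, 7525 were higher and 7507 lower, with a median of 0.00036. Glial markers were higher too, all 6 oligodendrocyte genes (median 0.47, 4 of them or 66.7% at an unadjusted p under 0.05) and all 7 astrocyte genes (median 0.10), with none called by edgeR, and their part in the members' levels was not tested. The highest was that of Nfe2l2, at 0.28 (SE 0.16, 95% interval -0.07 to 0.62), followed by Srxn1 at 0.18 (SE 0.21). With a library left out, Nfe2l2 ranged from 0.12, without the first SKF+Aβ+CSP-TTK21 library, to 0.40, without the second. Srxn1 ranged from 0.057, without the second SKF+Aβ+CSP library, to 0.30, without the first. Hmox1, the member most often used as a sign of oxidative stress, was at 0.07 (SE 0.21, 95% interval -0.38 to 0.52). The interval lay within 1.5-fold in 7 members and within 2-fold in 9. Its upper bounds were 1.43-fold for Hmox1, 1.55-fold for Srxn1, 1.49-fold for Nqo1, 1.39-fold for Gclm and 1.45-fold for Slc7a11.

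The empty particle was examined by comparing SKF+Aβ+CSP with SKF+Aβ, and none of the members was called (background 0%, with 328 genes or 2.18% at an unadjusted p under 0.05, 1 gene by DESeq2 and 0 by limma, no member among them). The members were equally divided, 5 higher and 5 lower. Nfe2l2 was the only member with groups that did not overlap, with 32.6 and 35.8 CPM in SKF+Aβ+CSP and 30.3 and 28.5 CPM in SKF+Aβ, where 27.2% of all genes did not overlap (14.3% higher). The oligodendrocyte markers were also higher without overlap, summing to 17271 and 17651 CPM in SKF+Aβ+CSP and 15528 and 10918 CPM in SKF+Aβ. In contrast, all 7 astrocyte genes (median log2 fold change -0.057) and 6 of the 8 microglial genes (median -0.17) were lower. The part of these cells in the level of Nfe2l2 was not tested. The log2 fold change of Nfe2l2 was 0.22 (SE 0.18, adjusted p = 1, edgeR). Hmox1 was at 30.4 and 20.8 CPM with CSP and 30.3 and 22.4 CPM without, a log2 fold change of -0.04 (SE 0.24, 95% interval -0.55 to 0.48). The 2 groups thus had nearly the same pair of values. Txnrd1 was at 149 and 166 CPM with CSP and 152 and 125 CPM without (log2 fold change 0.19, SE 0.15; 0.056 without the second SKF+Aβ library and 0.34 without the first).

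With TTK21 on the particle, none of the members was called against SKF+Aβ or against SKF+Aβ+CSP (background 0% in both), and the lowest adjusted p was 0.755 and 0.567, respectively (edgeR). None passed an unadjusted p of 0.05, where 6.59% (990 genes) and 8.78% (1320 genes) of all genes did. DESeq2 called 0 and 22 genes and limma called 0 in both, with no member among them. Gclm, Slc7a11 and Srxn1 were higher in both SKF+Aβ+CSP-TTK21 libraries than in all 4 libraries of the other 2 groups. Such groups were common, as 35.9% of all genes did not overlap against SKF+Aβ (18.2% higher) and 46.3% against SKF+Aβ+CSP (23.5% higher), in which comparison Osgin1 was lower in normalized CPM without overlap, though its counts of 7 and 0 against 14 and 7 met at 7. The comparisons share the SKF+Aβ+CSP-TTK21 libraries and are not independent.

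Gclm, the modifier subunit of the glutathione-forming ligase, had 21.2 and 20.0 CPM with CSP-TTK21, 17.5 and 16.7 CPM with CSP and 17.7 and 16.7 CPM in SKF+Aβ. The log2 fold change was 0.26 (SE 0.19, 95% interval -0.14 to 0.66) against SKF+Aβ and 0.27 (SE 0.19) against CSP. Slc7a11, the cystine transporter, had 269 and 268 CPM with CSP-TTK21, 225 and 200 CPM with CSP and 229 and 213 CPM in SKF+Aβ. Its 2 libraries with the loaded particle were almost identical and above the other 4, with a log2 fold change of 0.28 (SE 0.23) against SKF+Aβ and 0.34 (SE 0.23) against CSP. Srxn1, which reactivates oxidized peroxiredoxins, had 12.9 and 9.84 CPM with CSP-TTK21, 6.73 and 9.38 CPM with CSP and 8.66 and 8.20 CPM in SKF+Aβ. The second library of the loaded particle was only slightly above the second of CSP, and the log2 fold change was 0.43 (SE 0.24, 95% interval -0.08 to 0.95) against SKF+Aβ and 0.51 (SE 0.24) against CSP, the latter with an adjusted p of 0.567 (edgeR). Against SKF+Aβ it was 0.22 without the first SKF+Aβ+CSP-TTK21 library and 0.61 without the second, and against CSP it was 0.28 without the first SKF+Aβ+CSP library and 0.76 without the second. None of these differences passed the test.

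Marker levels of several cell types differed between the same libraries, although edgeR called no marker gene. The summed level of the 7 astrocyte genes was 4903 and 5183 CPM with CSP-TTK21, 4062 and 3710 CPM with CSP and 4160 and 4021 CPM in SKF+Aβ, also without overlap. The sum of the CA1 pyramidal neuron list was likewise highest with CSP-TTK21, at 2313 and 2201 CPM, against 1866 and 1710 CPM with CSP and 2124 and 1913 CPM in SKF+Aβ. Most of this sum was Camk2a, at 1350 to 2146 CPM over the 10 libraries. Of the 4 genes tested, 3 were higher and 1 lower in both comparisons, with medians of 0.075 against SKF+Aβ and 0.29 against CSP. Endothelial markers were lowest with CSP-TTK21, at 63.7 and 57.0 CPM, against 138 and 97.9 CPM with CSP and 100.3 and 78.1 CPM in SKF+Aβ. All 8 microglial and all 6 oligodendrocyte genes had higher values with CSP-TTK21 than in either group, with median log2 fold changes of 0.49 and 0.54 against SKF+Aβ and 0.64 and 0.14 against CSP, though their sums overlapped with those of at least 1 group. At an unadjusted p under 0.05 were 5 of the 6 oligodendrocyte genes (83.3%), 2 of the 8 microglial (25%), 1 of the 7 astrocyte (14.3%) and 1 of the 4 endothelial genes (25%) against SKF+Aβ, beside 6.59% of all genes. Against CSP these were none of the oligodendrocyte, 2 of the microglial (25%), 3 of the astrocyte (42.9%) and 3 of the endothelial genes (75%), beside 8.78%. The part of these cells in these differences of Gclm, Slc7a11 and Srxn1 was not tested. Correlations of Gclm and Slc7a11 with the astrocyte sum over all libraries are given below. Gclc, the catalytic subunit that works together with Gclm, was at 87.3 and 69.6 CPM with CSP-TTK21, 77.5 and 76.4 CPM with CSP and 83.8 and 68.6 CPM in SKF+Aβ. These ranges overlapped, and the log2 fold change of Gclc was 0.04 (SE 0.16) and 0.03 (SE 0.16).

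The member difference with the lowest p in any pairwise comparison was between SKF+Aβ and SKF, and concerned Hmox1. In this comparison 2.08% of all genes were called (312 of 15032) and none of the 10 members. Hmox1, heme oxygenase, had 38.8 and 44.2 CPM in SKF and 30.3 and 22.4 CPM in SKF+Aβ. The groups did not overlap, and both Aβ libraries were the lower. Its log2 fold change was -0.65 (SE 0.24, 95% interval -1.16 to -0.15), which had an unadjusted p of 0.0152 and an adjusted p of 0.126 (edgeR). An unadjusted p under 0.05 was reached by 22.8% of all genes in this comparison, so that 1 of 10 members, or 10%, is under the background. Without the filter on low counts the adjusted p of Hmox1 was 0.0143, in a fit that called 1311 genes, and under the other alternatives it was between 0.0836 and 0.343. Leaving out each library in turn gave a log2 fold change between -0.91 and -0.47.

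In the other Aβ groups Hmox1 was at 30.4 and 20.8 CPM with CSP and 23.6 and 36.1 CPM with CSP-TTK21. In the CSP-TTK21 alone group, without SKF and Aβ, it was at 33.8 and 42.1 CPM. The 6 libraries with Aβ thus spanned 20.8 to 36.1 CPM and the 4 without it 33.8 to 44.2 CPM, which was seen after the values were known and was not tested. Markers of microglia and oligodendrocytes were at lower levels in the same comparison, but edgeR called none of the marker genes. The 8 microglial genes summed to 98.0 and 174 CPM in SKF and 74.2 and 115 CPM in SKF+Aβ, and 7 of the 8 were lower with Aβ (median log2 fold change -0.32), none being at 0 in any library. The 6 oligodendrocyte genes summed to 16211 and 23950 CPM in SKF and 15528 and 10918 CPM in SKF+Aβ, all 6 being lower (median -0.65). The 7 astrocyte genes, of which 2 were higher and 5 lower, summed to 4160 and 4021 CPM with Aβ, inside the 3962 and 5252 CPM of SKF. The 2 genes of perivascular macrophages that were tested were both higher with Aβ (median 0.91). An unadjusted p under 0.05 was reached by 2 of the 8 microglial genes (25%), 4 of the 6 oligodendrocyte genes (66.7%) and 2 of the 7 astrocyte genes (28.6%), beside 22.8% of all genes. The part of these cells in this difference of Hmox1 was not tested. Its correlation with the microglial sum over all libraries is given below.

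**Figure D3:**
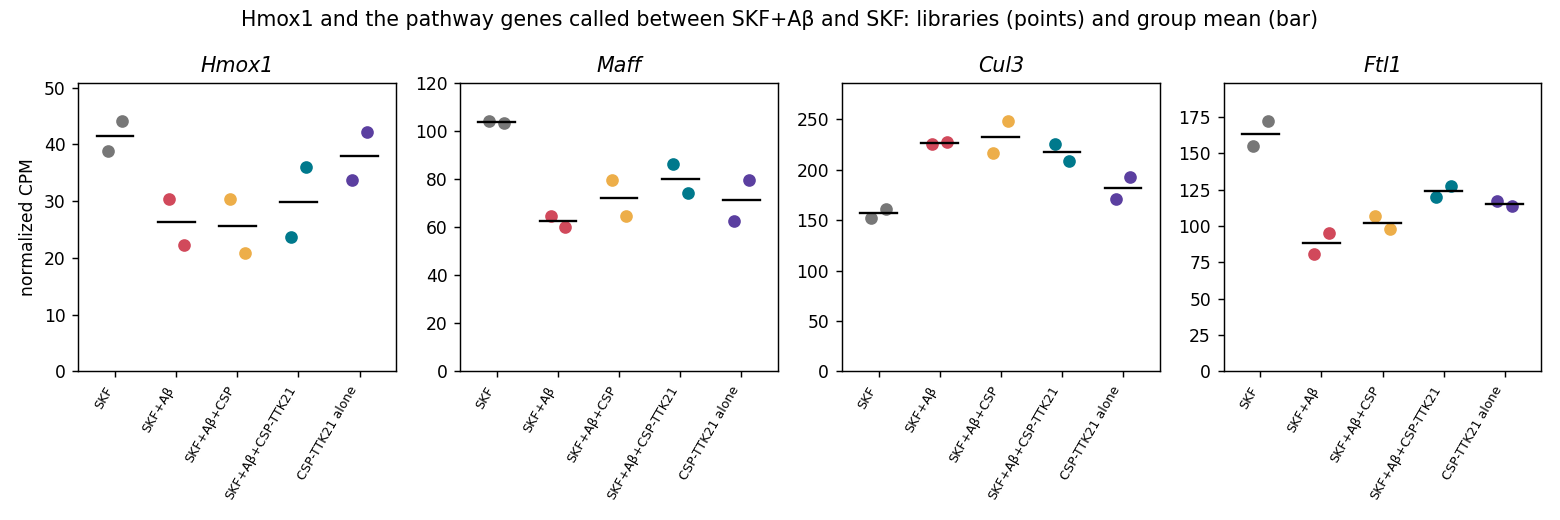
Normalized CPM (vertical axes from 0) of Hmox1, of Maff and Cul3, which act with or on Nrf2, and of the ferritin gene Ftl1, by group; points are libraries and bars are means of 2. In SKF+Aβ against SKF, Maff and Ftl1 are lower and Cul3 higher at an adjusted p under 0.05, while Hmox1 does not pass the test.

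Of the other members, Srxn1, Keap1 and Nfe2l2 were also lower in both SKF+Aβ libraries than in both SKF libraries, where 49.6% of all genes did not overlap (24.3% lower). Srxn1 had 11.6 and 11.9 CPM in SKF and 8.66 and 8.20 CPM in SKF+Aβ, a log2 fold change of -0.48 (SE 0.24, adjusted p = 0.252, edgeR). Keap1, the inhibitor of Nrf2, had 35.3 and 35.8 CPM in SKF and 30.5 and 30.7 CPM in SKF+Aβ, a log2 fold change of -0.22 (SE 0.14, adjusted p = 0.377). The 2 SKF libraries had the highest Keap1 levels of all 10, the others reaching at most 32.7 CPM. Nfe2l2 differed least, with a log2 fold change of -0.13 (SE 0.18, adjusted p = 0.707). The glutathione genes, Txnrd1 and Nqo1 all overlapped, with log2 fold changes between 0.02 and 0.13. The 5 members with negative values and the 5 with positive values gave a median of -0.05, against 0.00 over all genes.

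CSP-TTK21 alone was compared with SKF, which differ in both SKF and the particle. None of the members was called, with a lowest adjusted p of 0.675 (edgeR), at a background of 0%. An unadjusted p under 0.05 was found for 7.78% of all genes (1170) and none of the members, and DESeq2 and limma called 3 and 1 genes, none of them a member. Keap1, at 32.5 and 32.7 CPM, and Srxn1, at 9.00 and 8.69 CPM, were lower than in SKF without overlap, where 36.1% of all genes did not overlap (17.3% lower). The log2 fold change was -0.12 (SE 0.14) for Keap1 and -0.41 (SE 0.24) for Srxn1. Slc7a11 had 209 and 297 CPM against 142 and 262 CPM, a log2 fold change of 0.32 (SE 0.23), and the wide spread within both groups left them overlapping.

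The other genes of the pathway were taken in 7 lists, on regulators of Nrf2, glutathione, thioredoxin and peroxiredoxin, NADPH supply, heme and iron, detoxification, and removal of superoxide and peroxide. Of their 71 names, 66 matched the table and 60 were tested. Between the nanosphere groups and the others, 28 of the 60 were higher and 32 lower, with a median log2 fold change of -0.0024, none was called by edgeR, DESeq2 or limma, and none had an unadjusted p under 0.05. Among the regulators, Cul3, the scaffold of the ligase for Nrf2, was highest at 0.15 (SE 0.08), and Mafg, a small Maf partner, lowest at -0.16 (SE 0.11). The peroxiredoxin Prdx1 was at 0.19 (SE 0.12) and the mitochondrial reductase Txnrd2 at -0.09 (SE 0.13). Me1, an enzyme that forms NADPH, was at 0.20 (SE 0.13). None of these passed the test, nor did the genes at the ends of the remaining lists. These were Ggt1 (0.25, SE 0.47) and Abcc1 (-0.19, SE 0.24) for glutathione, and Slc48a1 (0.10, SE 0.09) and Abcb6 (-0.09, SE 0.10) for heme and iron. For detoxification they were Aldh3a1 (0.62, SE 0.56) and Cbr3 (-0.28, SE 0.34), and for superoxide and peroxide Sod2 (0.06, SE 0.09) and Ccs (-0.14, SE 0.13). Of these genes, Aldh3a1 was at 0.13 to 1.57 CPM, Ggt1 at 0.27 to 2.39 CPM and Cbr3 at 0.86 to 2.68 CPM, so that their values rest on few counts.

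**Figure D4:**
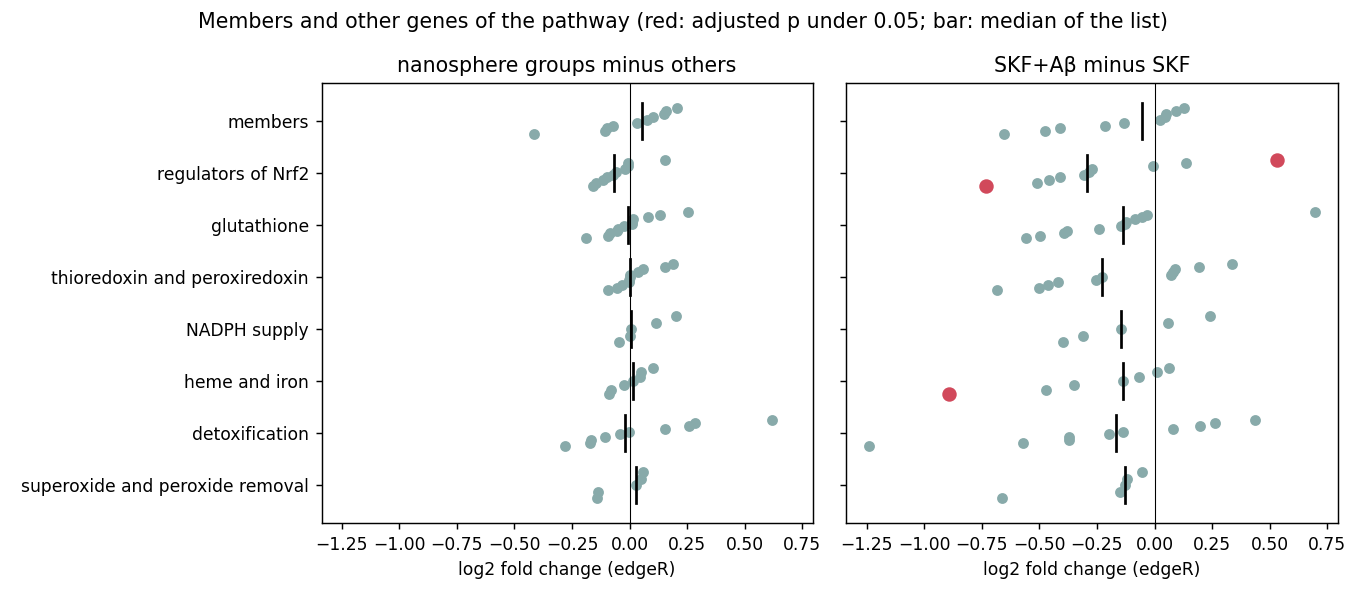
Log2 fold change (edgeR) of the members and of the genes in the 7 pathway lists for the nanosphere groups minus the others (left) and SKF+Aβ minus SKF (right); each point is a gene, the bar is the median of the list and red marks an adjusted p under 0.05. No gene is red on the left, and on the right the red points are Maff and Ftl1, lower, and Cul3, higher.

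Between SKF+Aβ and SKF, 3 of the 60 were called, 1 higher and 2 lower, against 2.08% of all genes, and by DESeq2 6 were called, 1 higher and 5 lower, against 5.47% of all genes by that tool. The 3 that DESeq2 called beyond those of edgeR were Mafk, the transketolase Tkt and the heme transporter Slc48a1. Maff, a small Maf that pairs with Nrf2, fell from 105 and 103 CPM to 65.0 and 60.2 CPM, a log2 fold change of -0.73 (SE 0.16, adjusted p = 0.0416, edgeR). Cul3 rose from 152 and 162 CPM to 226 and 228 CPM, a log2 fold change of 0.53 (SE 0.13, adjusted p = 0.0497). Ftl1, the light chain of the iron store ferritin and a known target of Nrf2, fell from 155 and 172 CPM to 81.0 and 95.2 CPM, a log2 fold change of -0.89 (SE 0.13, adjusted p = 0.0230). The groups did not overlap in any of the 3, nor did they in 49.6% of all genes tested. Ferritin light chain has near-identical copies in the genome, so that its counts are uncertain.

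The 3 calls were lost in a fit of the SKF and SKF+Aβ libraries alone, with adjusted p of 0.0828 for Maff, 0.128 for Cul3 and 0.0670 for Ftl1 (edgeR). Of the 10 fits that leave out a library, Cul3 lost its call in 10, Maff in 6 and Ftl1 in 1, that without the first SKF+Aβ library, while the directions stayed. The other small Maf genes were lower too, Mafk at -0.51 (SE 0.13, adjusted p = 0.0581) and Mafg at -0.46 (SE 0.17, adjusted p = 0.141), and neither passed in edgeR. In this comparison 44 of the 60 genes were lower, with a median of -0.15 against 0.00 over all genes. The oligodendrocyte and microglial markers had lower medians there as well, at -0.65 and -0.32, and their part was not tested. Of the 60, 18 had an unadjusted p under 0.05 (30%, against 22.8% of all genes). Among the 7 lists, the share was highest for the regulators (6 of 10, 60%) and lowest for detoxification (1 of 10, 10%).

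In the comparisons with a nanosphere group on 1 side and a single group on the other, none of the 60 was called by edgeR, DESeq2 or limma. For CSP-TTK21 with SKF and Aβ against SKF+Aβ, 49 of the 60 were higher with a median of 0.19, beside 0.01 over all genes, and 7 had an unadjusted p under 0.05 (11.7%, against 6.59% of all genes). The glial markers were higher in the same comparison, with medians of 0.49 for microglia, 0.31 for astrocytes and 0.54 for oligodendrocytes, and their part in the pathway genes was not tested. For the same group against SKF+Aβ+CSP, 43 were higher with a median of 0.21, and 10 had an unadjusted p under 0.05 (16.7%, against 8.78%). Marker medians in this comparison were 0.64 for microglia, 0.425 for astrocytes, 0.14 for oligodendrocytes and -0.835 for endothelial genes, and their part was not tested. The empty particle against SKF+Aβ gave 31 higher and 29 lower with a median of 0.01, and 1 gene had an unadjusted p under 0.05 (1.67%, against 2.18%). CSP-TTK21 alone against SKF gave 20 higher and 40 lower, with a median of -0.08 and 5 such genes (8.33%, against 7.78%). All 6 oligodendrocyte genes were lower there (median -0.34), while 5 of 8 microglial (0.17), 5 of 7 astrocyte (0.115) and both tested perivascular macrophage genes (1.26) were higher. The part of these cells was not tested. These comparisons share libraries, so that SKF+Aβ enters 2 of them. Ftl1 had 120 and 128 CPM with CSP-TTK21 and 107 and 97.6 CPM with CSP, between its levels in SKF+Aβ and in SKF.

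A pair of neighbouring stress programmes was examined in the same way. Of 8 genes of the ATF4 response, which also drives cystine import, 2 were higher and 6 lower in the nanosphere groups and none was called by edgeR, DESeq2 or limma. Trib3, a pseudokinase of that response, was lowest at -0.96 (SE 0.42, unadjusted p = 0.0375, adjusted p = 0.921, edgeR). Its levels were low in all libraries, at 0.40 to 2.49 CPM. Chac1, which degrades glutathione, was highest at 0.11 (SE 0.22). Of 5 heat shock genes tested, 1 was higher and 4 lower, with Hspb1 at 0.18 (SE 0.25) and Bag3 at -0.13 (SE 0.10), and none was called. Between SKF+Aβ and SKF the cochaperone Bag3 fell, with a log2 fold change of -0.85 (SE 0.15, adjusted p = 0.0326), a call that was lost in 5 of the 10 fits leaving out a library and in the fit of the SKF and SKF+Aβ libraries alone (adjusted p = 0.0701, edgeR). Chac1 was at -0.96 (SE 0.34, adjusted p = 0.121) in that comparison.

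Among the members, Gclm and Slc7a11 varied together across the 10 libraries. Their log2 levels had a Pearson r of 0.86 (permutation p = 0.00089, 0.04 after Benjamini-Hochberg adjustment over 45 pairs) and a Spearman rho of 0.93 (permutation p = 0.00027, adjusted 0.0121), both two-sided. Without the 2 libraries farthest from the median of Gclm, r was 0.84, and with the group means removed it was 0.96. The latter rests on 1 difference in each of the 5 groups, because the 2 libraries of a group deviate equally in opposite directions. The permutations took no account of the groups. In SKF, the first library had 14.7 CPM of Gclm and 142 CPM of Slc7a11 and the second 18.6 and 262 CPM. In CSP-TTK21 alone the first had 15.2 and 209 CPM and the second 18.8 and 297 CPM. In the 3 groups with Aβ, whose values are given above, the libraries of a group were closer to each other. Gclc and Txnrd1 had r of 0.79 (permutation p = 0.00738, adjusted 0.166) and rho of 0.83 (permutation p = 0.00454, adjusted 0.102), and r of 0.80 without the 2 libraries farthest out, which did not pass the correction. No other pair passed it.

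**Figure D5:**
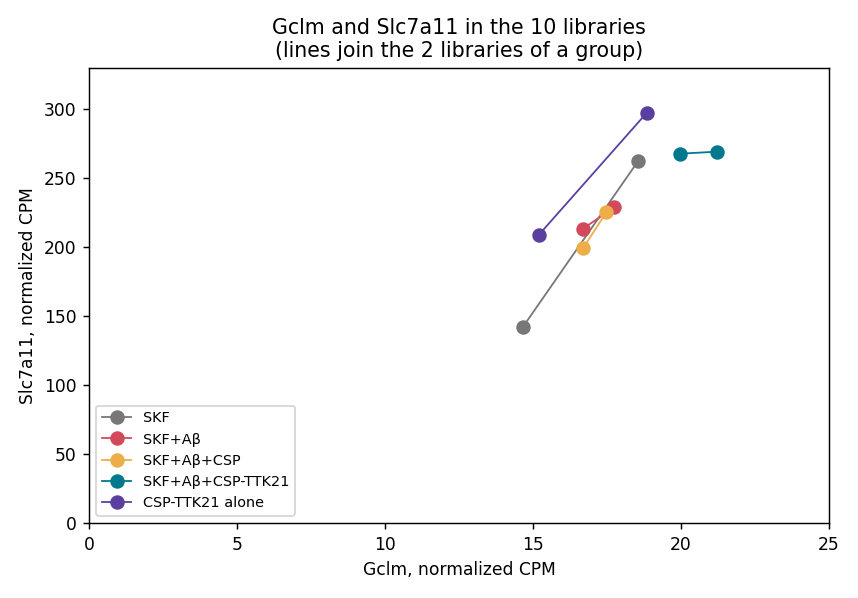
Slc7a11 against Gclm in normalized CPM (both axes from 0) in the 10 libraries, coloured by group, with a line joining the 2 libraries of a group. In each group the library with more Gclm also has more Slc7a11, the lowest being the first SKF library at 14.7 and 142 CPM.

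The relation of the members with summed glial markers was computed after their values were seen. Across the 10 libraries the summed astrocyte level had an r of 0.80 with Slc7a11 (permutation p = 0.00307, adjusted 0.0921 over 30 relations of 10 members and 3 glial lists) and a rho of 0.93 (permutation p = 0.00042, adjusted 0.0126). Without the 2 libraries farthest out r was 0.71. For Gclm the r was 0.74 (permutation p = 0.0174, adjusted 0.13) and the rho 0.81 (permutation p = 0.00753, adjusted 0.0753), with 0.81 for r without 2 libraries. The highest astrocyte sum, 5646 CPM, was in the second CSP-TTK21 alone library, which also had the highest Slc7a11. Hmox1 had an r of 0.63 with the microglial sum (permutation p = 0.0534, adjusted 0.215) and a rho of 0.66 (permutation p = 0.0437, adjusted 0.218), and r of 0.62 without 2 libraries, which did not pass. Of the other relations, Nfe2l2 with oligodendrocytes had an r of 0.76 (permutation p = 0.011, adjusted 0.126) and a rho of 0.76 (permutation p = 0.0152, adjusted 0.114). Txnrd1 with microglia had an r of -0.77 (permutation p = 0.0126, adjusted 0.126) and a rho of -0.82 (permutation p = 0.00609, adjusted 0.0753). Without the 2 libraries farthest out r was 0.78 and -0.69, respectively, and neither passed the correction.

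The mean of the standardized log2 levels of the 8 target genes was highest in the first SKF+Aβ+CSP-TTK21 library, at 0.81, and lowest in the second SKF+Aβ library, at -0.84. The other library of each of these groups was at -0.17 and 0.31, so that neither group was uniformly high or low. Over all genes tested, the profiles most like this mean were those of Cyp2u1 (r of 0.91), Endod1 (0.91), Megf10 (0.90), Bcl10 (0.90) and AABR07055919.1 (0.90). Most like Hmox1 were Mapkapk3 (r of 0.95), Pdgfrb (0.94), Akt1s1 (0.93), Macrod1 (0.93) and Cish (0.93). These are the highest of 15032 correlations over the same 10 libraries and are given as a description.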

How the data were processed

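RNA-seq counts of 10 libraries were used, which the authors deposited as whole numbers per gene (rat Ensembl identifiers) and not normalized. Per the study's methods, the kit was stranded and removed ribosomal RNA, reads were trimmed, PCR duplicates were removed and reads were aligned with TopHat2, and FPKM values were made with Cufflinks. These methods name a rat and a mouse assembly, and the submitters' processing notes name STAR, RSEM, HISAT2, Salmon and the build GRCh38 without a role. The program that made the counts and its use of strand are not given in the sources used here.

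Groups and replicate numbers came from the labels. The study describes the libraries of a group as biological replicates, while the labels do not say which animals each came from, and p-values measure the spread between 2 such libraries per group. The analysis was run in edgeR 4.0.16 under R 4.3.3 (filterByExpr by group, TMM factors, quasi-likelihood F test). All 10 libraries entered 1 fit with a mean per group, and p-values were adjusted by Benjamini-Hochberg over 15032 genes. Genes were called at an adjusted p under 0.05. The SE was computed as the absolute log2 fold change divided by the square root of the F statistic. The 95% intervals are this SE times a quantile of the t distribution, on either side of the estimate. The script was tested on simulated data. Alternatives were RLE factors, a fit of all genes without filtering, a fit of genes with 10 or more counts in each library, a replicate block, only the groups compared, DESeq2 1.42.0, limma 3.58.1 on log2 CPM with a prior count of 2, a log2 fold change limit of 1.5, unadjusted p-values and each library left out in turn. Correlations used log2 CPM and 100000 permutations of the 10 libraries, which took no account of the groups. Total counts of 6753742 to 8473407 set the precision, and a count of 0 allows up to 3 counts. This and the intervals cover counting error and library spread only.

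The members, lists and tests were chosen with earlier results of these data known, and the letters of the promoter motifs after the sequences were seen. Named are all members, the list genes called in any comparison, and for each list the genes with the highest and lowest log2 fold change between the nanosphere groups and the others. Ftl1, Mafg, Mafk and the untested Fth1 and Gpx4 are given further values chosen after they were seen, and Tkt is named for its DESeq2 call in the same way. The values of 1 gene that this rule names are not reported here. Promoters are from RefSeq, assembly GRCr8, and no coordinate of the count table was used.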

Additional observations from a re-analysis of the deposited data

How the results depend on the processing

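None of the 10 members was called in any of the 7 comparisons or in the test for any difference between groups under the alternatives tried, except for Hmox1. It was the 1 member called without a filter on low counts between SKF+Aβ and SKF (adjusted p = 0.0143, edgeR) and for any difference, in fits that called 1311 and 1401 genes. It was also the 1 member under an unadjusted p of 0.05 in both, beside 22.8% and 14.3% of all genes. Over 700 member values with a library left out, the lowest adjusted p was 0.0992 and 72 changed direction. Of 471 member values under the other alternatives, 459 kept their direction and side of the threshold. The 11 that changed direction were all near 0: Txnrd1 between SKF+Aβ and SKF without a filter (-0.010), Nqo1 between SKF+Aβ+CSP and SKF+Aβ with DESeq2 (-0.00066) and limma (-0.023), Txnrd1 for CSP-TTK21 against SKF+Aβ with RLE factors (-0.0048), at least 10 counts (-0.0100), DESeq2 (-0.0048) and only the groups compared (-0.0036), and Gclc between CSP-TTK21 alone and SKF with RLE factors (-0.0015), without a filter (-0.021), with DESeq2 (-0.0014) and with only the groups compared (-0.0039).

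With a library left out, log2 fold changes that crossed 0 ranged as follows. For nanosphere groups against the others: Hmox1 -0.22 to 0.0086, Gclc -0.037 to 0.11, Osgin1 -2.02 to 0.48. For nanosphere groups with Aβ against SKF+Aβ: Keap1 -0.015 to 0.031, Hmox1 -0.13 to 0.31, Nqo1 -0.045 to 0.23, Gclc -0.10 to 0.18, Txnrd1 -0.036 to 0.25, Osgin1 -2.82 to 1.37. For SKF+Aβ against SKF: Nqo1 -0.071 to 0.15, Gclc -0.077 to 0.21, Gclm -0.12 to 0.23, Slc7a11 -0.26 to 0.64, Txnrd1 -0.14 to 0.14, Osgin1 -2.21 to 0.40. For SKF+Aβ+CSP against SKF+Aβ: Keap1 -0.043 to 0.026, Hmox1 -0.34 to 0.21, Nqo1 -0.30 to 0.25, Gclc -0.12 to 0.17, Gclm -0.047 to 0.038, Slc7a11 -0.14 to 0.030, Srxn1 -0.32 to 0.16, Osgin1 -0.41 to 2.13. For SKF+Aβ+CSP-TTK21 against SKF+Aβ: Keap1 -0.021 to 0.075, Hmox1 -0.16 to 0.45, Gclc -0.13 to 0.20, Txnrd1 -0.13 to 0.15, Osgin1 -5.99 to 0.62. For SKF+Aβ+CSP-TTK21 against SKF+Aβ+CSP: Nfe2l2 -0.20 to 0.37, Keap1 -0.011 to 0.087, Hmox1 -0.12 to 0.51, Nqo1 -0.042 to 0.50, Gclc -0.14 to 0.18. For CSP-TTK21 alone against SKF: Nfe2l2 -0.050 to 0.022, Hmox1 -0.30 to 0.0052, Nqo1 -0.049 to 0.43, Gclc -0.12 to 0.12, Gclm -0.13 to 0.22, Slc7a11 -0.060 to 0.84, Txnrd1 -0.082 to 0.14, Osgin1 -1.09 to 0.61. The fitted values of Osgin1, at 0 to 15 counts, depend on the prior count. A group left with 1 library was assumed to vary like the others.

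The number of genes called over the whole table moved more. Without a filter it was 56 for the nanosphere groups against the others, 45 for those with Aβ against SKF+Aβ, 1311 for SKF+Aβ against SKF (312 with the filter), 66 for CSP and 128 for CSP-TTK21 against SKF+Aβ, 307 for CSP-TTK21 against CSP, 157 for CSP-TTK21 alone against SKF and 1401 for any difference. At an unadjusted p under 0.05 the counts in the same order were 658, 419, 3431, 328, 990, 1320, 1170 and 2157. With DESeq2 they were 2, 0, 822, 1, 0, 22, 3 and 407. With limma, and with at least 10 counts in each library, 1 gene each was called for the nanosphere groups against the others and for CSP-TTK21 alone against SKF. In fits of only the groups compared, 12 genes were called for SKF+Aβ against SKF, 1 each for CSP and CSP-TTK21 against SKF+Aβ and 50 for CSP-TTK21 against CSP, and a log2 fold change limit of 1.5 left 22 for SKF+Aβ against SKF. With a library left out, SKF+Aβ against SKF gave 1 to 301 genes, the lowest without the first SKF+Aβ library. CSP-TTK21 gave 0 to 7 against SKF+Aβ (7 without the second SKF+Aβ library) and 0 to 6 against CSP (6 without the second SKF library), CSP-TTK21 alone and the nanosphere groups each 0 to 1, and any difference 1 to 8. The causes of these shifts were not tested.

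The replicate numbers were examined as a pairing. Deviations from the group means correlated between libraries of the same number with r from -0.07 to 0.24 over the 10 pairs of groups, over 0.1 in 4 of them: the 3 pairs among SKF, SKF+Aβ and CSP-TTK21 alone, and SKF+Aβ with SKF+Aβ+CSP-TTK21. As not every pair passed 0.1, and no source used here says what a number marks, the libraries were treated as sharing only a number, and whether some shared a day or batch was not tested. With the replicate block, no member was called, and 1 gene was called for CSP against SKF+Aβ, 14 for CSP-TTK21 against CSP and 15 for any difference. Osgin1 had 0 to 15 counts at a depth of 6753742 to 8473407 per library.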
